A study of Caenorhabditis elegans with 11 samples.

Results

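The genes described here are grouped by symbol as lysosomal and digestive proteases of the nematode Caenorhabditis elegans, though tpp-2 codes for a cytosolic peptidase. They are the rows of the deposited count tables whose symbol begins with asp, cpr, cpl, cpz, tpp, ctsa or pcp followed by a hyphen and a digit, and 34 of 42048 genes met this rule. The 34 are 19 aspartic proteases (asp-1 to asp-19), 6 cathepsin B-like genes (cpr-1 to cpr-6), the cathepsin L gene cpl-1, the cathepsin Z genes cpz-1 and cpz-2, the tripeptidyl peptidase gene tpp-2 and 5 prolyl carboxypeptidase-like genes (pcp-1 to pcp-5). No row carried a ctsa symbol. The 7 carboxypeptidase genes that are now named ctsa stand in the tables under their sequence names and are described further down as a related list.

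Lysosomal proteases cut proteins in an acidic compartment that is kept acid by a proton pump, the vacuolar ATPase. Aspartic proteases use a pair of aspartates and cysteine cathepsins a cysteine in the active site, and both classes are made as inactive precursors. In worms the intestine serves as gut, liver and fat store, and its cells hold many lysosome-related granules and also release proteases into the gut lumen to digest bacteria. Cystatins are small proteins that inhibit cysteine cathepsins.

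RNA of whole adult worms was sequenced in 11 libraries of 5 groups. Wild-type N2 worms were fed the indole-producing Escherichia coli K12 and sampled at an early age in 3 libraries and at a late age in 2. Other N2 worms were fed the tnaA deletion strain of K12, which lacks tryptophanase and so makes no indole, with 2 libraries at each age. Mutants carrying ahr-1(ia3) were fed K12 and gave 2 late libraries. The ia3 allele is a loss-of-function mutation of the worm aryl hydrocarbon receptor. Late worms were 12 days old, while the early age is 3 days in the sample labels and 2 days of adulthood in the design text. All groups were grown at 16 °C from the embryo on their bacteria, and each library came from about 150 pooled animals, so the values are averages over animals and tissues.

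Libraries held 8310145 to 15307891 reads in genes, the shallowest being late tnaA replicate 3. Levels are given as CPM, reads scaled to a common TMM-adjusted library size, and 3 reads stood for 0.196 to 0.361 CPM before that scaling. TMM gave factors between 0.820 and 0.877 for early and between 1.14 and 1.17 for late worms, so library-size scaling without TMM moved the median change of all genes from -0.04 to 0.38 (log2) on K12 and from 0.02 to 0.49 on tnaA. Reads outside genes made up 6.14 to 7.19% of early K12, 8.27 to 8.56% of late K12, 9.26 to 14.8% of late tnaA and 11.6 to 13.8% of late ahr-1 libraries. Differences were tested with edgeR's quasi-likelihood F test over all 15133 genes with enough reads, and a gene is called at a Benjamini-Hochberg adjusted p under 0.05. Fold changes are log2 values with their standard error.

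Of the 34 genes, 28 passed the filter on low counts. The other 6, all aspartic proteases, had almost no reads: asp-7, asp-15, asp-18 and asp-19 had 0 to 2 reads in every library, asp-9 had 0 to 5, and asp-16 had 3 to 12 early but only 0 to 6 late. The filter was passed by cpr-2 and asp-11 through late libraries alone, since neither had more than 4 reads in any early library, and asp-11 passed it through the ahr-1 libraries alone. Reads of both are given with no test of age, and those of asp-11 with no test of genotype, and neither is counted there. In the current annotation asp-10 and asp-11 have no gene model under these symbols, and RefSeq lists asp-11 as a pseudogene. Opposite-strand genes overlap tpp-2 (nspg-3), asp-2 (inx-10), cpz-2 (gcy-34) and asp-4 (R12H7.4). No source used here states whether counting used strand, so reads of these pairs may not be told apart.

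Several members lie next to each other in the annotation. The genes asp-6, asp-12 and asp-5 follow each other directly, as do asp-17, asp-16, asp-15 and asp-1, asp-19 and asp-18, asp-8 and asp-7, and pcp-3 and pcp-2. Neighbours differed widely in level: asp-1 was among the most abundant members, whereas asp-15 beside it had at most 1 read in any library. Such neighbours are related in sequence, and reads matching more than 1 of them may be missing from the counts or misplaced.

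In early worms a handful of genes carried most of the protease transcripts. Per kilobase of exon, asp-1, an aspartic protease of the intestine, had the highest mean level in early K12 worms at 1585 ± 230.3 CPM per kilobase (SD, n = 3), followed by cpl-1, which is essential for embryos and takes part in yolk processing, at 1252 ± 33.4. The cathepsin D-like gene asp-3 stood at 1054 ± 119 and asp-6 at 1007 ± 133 CPM per kilobase, and these neighbours in the order did not differ beyond their spread. The cathepsin B-like gene cpr-6 came next at 889.7 ± 2.50, above cpz-1 at 337 ± 9.96. This order leaves out asp-10, which has no exon length in the annotation and had 506 to 568 CPM in early K12 libraries. Early tnaA worms had the same genes in the first 5 places.

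The order was different in late worms. In each of the 3 late groups asp-6 had the highest mean per kilobase, at 434 ± 8.53 in late K12 (SD, n = 2), 605 ± 51.4 in late tnaA and 492 ± 14.2 CPM per kilobase in late ahr-1 worms, and cpl-1 came second at 351 ± 28.4, 412 ± 0.82 and 437 ± 2.198. On K12 asp-1, at 267 ± 87.2, ranked just behind cpr-4 at 268 ± 30.2. All 34 genes together took 0.914 to 1.05% of gene reads in early and 0.341 to 0.457% in late libraries.

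**Figure D1:**
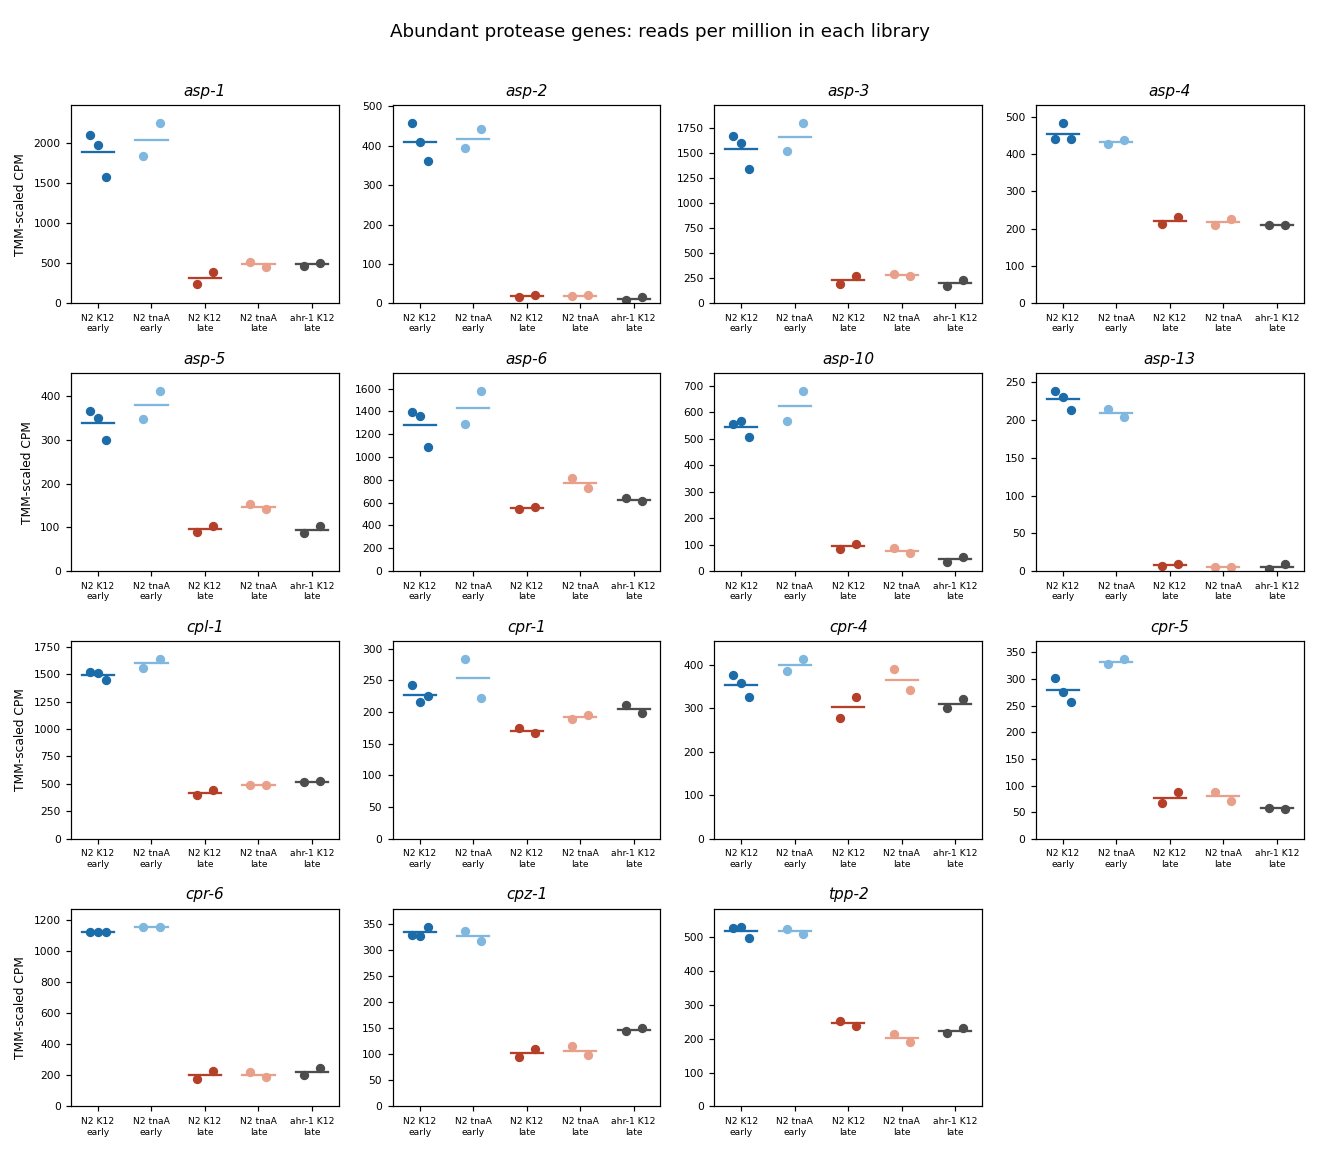
Each panel plots the TMM-scaled CPM (linear axis from 0) of a gene with a mean of at least 50 CPM over the 11 libraries. Points are libraries, horizontal bars are group means (n = 3 for N2 on K12 early, n = 2 for the others). Early libraries lie far above late ones for most genes, for example asp-2 at 362 to 457 CPM early and 7.69 to 22.3 late, while cpr-1 and cpr-4 lie close together.

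Ageing was measured by setting late against early N2 worms on each bacterial strain. Most protease transcripts were far less abundant in late worms. On K12, 25 of 26 members fell and 1 rose, at a median of -1.85, against a median of -0.04 over all genes tested. The background was high, since 36.7% of all genes were called lower and 32.9% higher in this comparison (5553 and 4974 genes, or 3032 and 7755 with library-size scaling). On tnaA 24 of 26 fell and 0 rose by edgeR, by DESeq2 or at an unadjusted p under 0.05, at a median of -2.06 against 0.02 over all genes, where 36.3% of all genes were called lower and 35.6% higher (5498 and 5394 genes, or 3140 and 7848 with library-size scaling). The fall was at least 2-fold for 21 members on K12, where 13.6% of all genes fell as far, and for 19 on tnaA, where 14.8% did.

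These whole-animal values cannot tell fewer cells of a type from less RNA per cell. The 11 intestinal marker genes found in the tables had a summed level of 1574 to 1763 CPM in early and 699 to 799.9 CPM in late libraries, and 9 of the 11 fell on K12. The median change of these intestinal markers was -1.19 on K12 and -1.39 on tnaA. Among them the GATA factor gene elt-2 changed by -0.57 ± 0.13 on K12 and -0.80 ± 0.15 on tnaA. The summed level of 13 germline and oocyte markers was 15814 to 16964 CPM early and 5711 to 8795 CPM late, and 13 of 13 fell on K12. Body wall muscle markers summed to 3557 to 4209 CPM early and 232 to 374 late, with 5 of 5 lower on K12, and pharynx markers to 139 to 173 and 36.3 to 74.1, with 3 of 3 lower. Hypodermis and cuticle markers summed to 1278 to 1508 CPM early and 44.4 to 68.6 late, with 1 of 5 tested lower and 2 higher. Early embryo markers went from 1158 to 1259 down to 540 to 741 CPM, with 4 of 5 tested lower, and neuronal markers from 161 to 167 up to 280.4 to 337 CPM, with 5 of 5 higher. The part of these tissues in the protease changes was not tested.

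Among the aspartic proteases all 12 members tested for age fell on both strains. Early asp-1 stood at 2103, 1981 and 1579 CPM on K12 and 1845 and 2247 on tnaA, and late asp-1 at 245 and 392 on K12 and 517 and 459 on tnaA. Every late library was below every early one, and the change was -2.57 ± 0.18 on K12 (adjusted p = 2.64e-08) and -2.07 ± 0.18 on tnaA. The cathepsin D-like asp-3, which together with asp-4 is needed for necrotic death of worm neurons, had 1674, 1605 and 1343 CPM early on K12, 1529 and 1801 early on tnaA, 195.6 and 275 late on K12 and 290.2 and 275 late on tnaA. It kept 15.3% of its early mean on K12 and 16.98% on tnaA (-2.71 ± 0.16 and -2.56 ± 0.17).

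Its partner asp-4 fell less. It had 439.6, 483 and 441 CPM early and 212 and 232 CPM late on K12, and 428 and 439 early and 211 and 226 late on tnaA. The groups did not overlap, and asp-4 changed by -1.03 ± 0.06 on K12 and -0.99 ± 0.07 on tnaA. Late levels of asp-4 were thus close to 48.8% of early ones on K12, while asp-3 lay far lower.

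On K12 the steepest falls of the family were those of asp-13, asp-8, asp-2 and asp-14, while on tnaA asp-17, described further down, came second to asp-13. Levels of asp-13 went from 238, 230.1 and 213 CPM in early K12 libraries to 7.15 and 9.63 in late ones, and from 214 and 204 to 5.55 and 5.77 on tnaA (-4.76 ± 0.18 and -5.21 ± 0.21). For asp-2 the early values were 457, 410.2 and 362 on K12 and 393 and 443 on tnaA, and the late values 16.7 and 22.3 on K12 and 18.3 and 19.9 on tnaA (-4.40 ± 0.18 and -4.46 ± 0.20). Late worms thus kept 3.69% of the asp-13 and 4.75% of the asp-2 level on K12. The rarer asp-14 changed by -4.17 ± 0.13 on K12 and -4.09 ± 0.13 on tnaA, from 58.9 to 68.5 CPM early to 3.09 to 3.95 late. Still rarer, asp-8 fell from 8.80 to 13.1 CPM to 0.343 to 1.96 (-4.65 ± 0.30 on K12 and -3.12 ± 0.26 on tnaA).

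Less steep falls were those of asp-10, asp-5, asp-12 and asp-6. For asp-10 the early values were 555, 568 and 506 CPM on K12 and 567 and 679.7 on tnaA, and the late ones 85.0 and 104.03 on K12 and 85.2 and 68.8 on tnaA. No late library reached an early value of asp-10 (-2.52 ± 0.15 and -3.004 ± 0.17). The adjacent genes asp-5, asp-12 and asp-6 changed by -1.81 ± 0.11, -1.89 ± 0.15 and -1.22 ± 0.11 on K12 and by -1.36 ± 0.11, -2.17 ± 0.16 and -0.89 ± 0.11 on tnaA. Of these, asp-6 had 1399, 1363 and 1089.6 CPM early and 545 and 561 late on K12, and 1287 and 1578 early and 818 and 725 late on tnaA. Late asp-6 was below each early library, though it kept 43.1% of its early level on K12 and 53.9% on tnaA.

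The cysteine cathepsins did not move as a block. The cathepsin L gene cpl-1 had 1518, 1508 and 1445 CPM early and 394 and 442 late on K12, and 1557 and 1639 early and 491 and 489 late on tnaA. Early and late libraries were well apart, with -1.83 ± 0.06 on K12 (adjusted p = 2.79e-11) and -1.71 ± 0.06 on tnaA. The cathepsin B-like gene cpr-6 had 1118 to 1124 CPM in early K12 and 1151 and 1156 in early tnaA libraries, the tightest early values of the abundant genes, and 179.5 and 227 late on K12 and 221 and 187 late on tnaA (-2.46 ± 0.11 and -2.49 ± 0.12). Its paralog cpr-5 fell from 257 to 303 CPM to 66.4 and 88.2 on K12 and from 328 and 338 to 87.7 and 71.8 on tnaA (-1.85 ± 0.11 and -2.05 ± 0.12).

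In contrast cpr-1, cpr-3 and cpr-4 changed little. The gut cysteine protease gene cpr-1 had 242, 215 and 225 CPM early and 175 and 167 late on K12, and 284 and 223 early and 189 and 195.8 late on tnaA, so late libraries were lower but close to early ones (-0.42 ± 0.09 and -0.40 ± 0.09, both called). For cpr-4, whose product is secreted, the values were 377, 357 and 327 early and 278 and 326 late on K12, and 387 and 414 early and 390.2 and 341 late on tnaA. The groups overlapped on tnaA and nearly touched on K12, and cpr-4 was called on K12 only (-0.23 ± 0.08 and -0.13 ± 0.09). The fall of cpr-4 on K12 was lost without early K12 replicate 1 or 2 or late K12 replicate 1 (-0.22 to -0.12), and also with DESeq2, RLE scaling, the stricter filter or the compared groups alone (-0.17 to -0.11). With library-size scaling, where the median of all genes itself moved to 0.38 and 0.49, cpr-1 stood at 0.00 on K12 and 0.07 on tnaA, not called, and cpr-4 turned to 0.19 and 0.35.

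Levels of cpr-3 were 34.6, 35.0 and 34.0 CPM early and 41.4 and 46.6 late on K12, and 36.8 and 52.4 early and 37.3 and 39.0 late on tnaA. It rose on K12 (0.35 ± 0.11, adjusted p = 0.0154) and had -0.23 ± 0.13 on tnaA, where the 2 early libraries lay on either side of the late ones. The rise on K12 was lost without late K12 replicate 3 (0.26, adjusted p = 0.136). The difference between both ageing changes of cpr-3 was 0.58 ± 0.17 with an adjusted p of 0.0840, so it was not called.

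Reads of cpr-2 were almost confined to late worms. It had 0, 4 and 1 reads in the early K12 and 0 and 2 in the early tnaA libraries, against 222 and 210 in the late K12 and 248 and 111 in the late tnaA libraries. In CPM the late values were 12.7 and 12.7 on K12 and 14.6 and 11.4 on tnaA, while no early library exceeded 0.321. No test is given, since cpr-2 entered the fit through its late reads.

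The cathepsin Z genes fell on both strains. For cpz-1, which is needed for moulting in worms, the early values were 329, 328 and 346 CPM on K12 and 336 and 317 on tnaA, against 95.0 and 111 late on K12 and 115 and 99.7 late on tnaA (-1.70 ± 0.08 and -1.60 ± 0.08). The lower expressed cpz-2 had 40.7 to 51.5 CPM early and 26.2 and 28.7 late on K12, and 38.9 and 42.7 early and 33.6 and 21.3 late on tnaA (-0.75 ± 0.14 and -0.53 ± 0.16). The call of cpz-2 on tnaA was lost without early tnaA replicate 3 or late tnaA replicate 3 (-0.46 to -0.28), and with library-size scaling (-0.05).

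Serine peptidases fell as well. The gene tpp-2 codes for a large cytosolic, not lysosomal, peptidase, and had 526, 530.2 and 495 CPM early and 251 and 238 late on K12, and 522 and 509 early and 215 and 191 late on tnaA. Early and late values did not overlap (-1.08 ± 0.06 and -1.34 ± 0.07). All 5 pcp genes fell on both strains, with a median of -2.52 on K12 and -2.47 on tnaA. The largest change was that of pcp-2, from 30.2 to 41.7 CPM early to 0.649 to 1.45 late (-4.69 ± 0.28 and -5.50 ± 0.34), and the smallest that of pcp-5, from 45.0 to 48.3 CPM early to 23.4 to 27.7 late (-0.91 ± 0.07 and -0.83 ± 0.08). The genes pcp-4, pcp-1 and pcp-3 had -3.97 ± 0.26, -2.52 ± 0.14 and -1.85 ± 0.10 on K12.

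**Figure D2:**
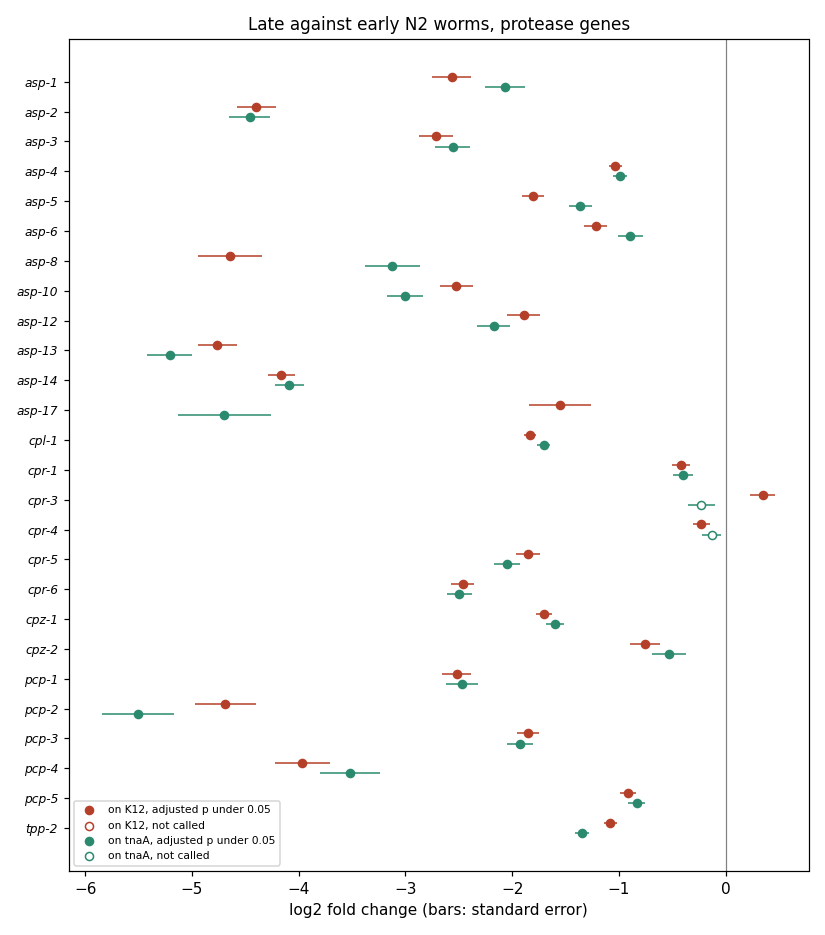
Log2 fold changes of late against early N2 worms for the 26 members tested for age, on K12 (red) and tnaA (green), with standard errors as bars. Filled points had an adjusted p under 0.05. Nearly all points lie left of 0, cpr-3 on K12 lies to the right (0.35), and asp-17 shows the widest gap between the strains (-1.55 on K12, -4.70 on tnaA).

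All 24 members that fell on tnaA also fell on K12, which is 96.0% of those falling on K12 and 100% of those falling on tnaA, the additional gene on K12 being cpr-4. Over all genes tested the shared falls were 89.5% of those on K12 and 90.4% of those on tnaA. Both changes have no library in common. Their difference was tested as an interaction, which called 1 member higher and 0 lower in the K12 change (asp-17), against 1.43% and 0.971% of all genes (217 and 147 genes, or 425 and 185 with RLE and 119 and 190 with library-size scaling). Counting unadjusted p-values under 0.05 gave 4 and 2 members, and DESeq2 called 3 and 1.

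That gene, asp-17, is an aspartic protease gene lying 3 genes from asp-1. Early values were 15.2, 17.1 and 11.8 CPM on K12 and 14.5 and 27.1 on tnaA. Late values were 4.86 and 5.15 CPM on K12 and 0.708 and 0.927 on tnaA, from 85 and 85 against 12 and 9 reads. So asp-17 kept 34.1% of its early level on K12 and 3.93% on tnaA, and the difference of the changes was 3.15 ± 0.57 (adjusted p = 0.0299). The value stayed between 2.63 and 3.31 where the call was lost, which happened without early K12 replicate 2, early tnaA replicate 3, late K12 replicate 1 or 3, or late tnaA replicate 2 or 3 (adjusted p = 0.0561 to 0.131).

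Other genes of the lysosome and of protein digestion were examined in lists beside the members. Of 21 genes of the vacuolar ATPase 19 fell and 1 rose on K12, with a median of -0.99, among them vha-6, the subunit of the pump on the gut lumen side (-3.16 ± 0.10), and vha-5 (-2.16 ± 0.08). Of 11 genes of peptide uptake and other peptidases 10 fell and 1 rose, among them the intestinal dipeptide transporter gene pept-1 (-2.29 ± 0.14) and the leucine aminopeptidase gene lap-2 (-1.02 ± 0.05). Of 16 further lysosomal hydrolases 11 fell and 3 rose, with a median of -1.02, among them the intestinal acid phosphatase gene pho-1 (-4.39 ± 0.19) and gba-4 of the glucocerebrosidase family (-4.38 ± 0.22). Lysosomal membrane and transport genes were divided, with 9 lower and 5 higher of 16 and a median of -0.17, among them scav-1 (-2.04 ± 0.11) and the cholesterol transporter gene ncr-1 (0.98 ± 0.10). With 36.7% of all genes lower and 32.9% higher, that last list was near the background for rises. On tnaA the lower and higher counts were 19 and 0, 10 and 1, 11 and 2, and 8 and 5 in the order given.

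Inhibitors and calpains, which are calcium-dependent cysteine proteases of the cytosol, were mixed. The cystatin gene cpi-1 rose by 2.08 ± 0.08 on K12 and 2.17 ± 0.10 on tnaA, while most cathepsin genes fell, and the related cpi-2 rose by 0.23 ± 0.05 and 0.26 ± 0.06. Against 32.9% of all genes higher and 36.7% lower, 3 of the 8 inhibitor genes tested rose and 4 fell on K12, among them the serpin gene srp-1 (-1.92 ± 0.17). Of 7 calpain genes 2 rose and 2 fell, with clp-4 at 2.35 ± 0.07 and tra-3 at -0.56 ± 0.08. On tnaA the rising and falling counts were 3 and 4 for inhibitors and 2 and 2 for calpains.

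Genes related to the members but listed under other names mostly fell too. Of 10 tested cathepsin-like genes, chosen with the annotation known, 6 fell and 2 rose on K12, and 7 and 2 on tnaA. Over all genes tested 36.7% were called lower and 32.9% higher on K12, and 36.3% and 35.6% on tnaA. The gene F57F5.1, now named cpr-9, had 1125 to 1177 CPM in early K12 and 74.4 and 129.8 in late K12 libraries (-3.49 ± 0.21), so it was as abundant as cpr-6 in early worms. The cathepsin F-like gene tag-196 rose instead, from 61.4 to 63.9 CPM to 116 and 119.5 on K12 (0.91 ± 0.07). Of 7 carboxypeptidase genes now named ctsa, a list added after their absence under that symbol was seen, 6 fell and 0 rose on each strain, with medians of -3.32 and -4.07. The abundant F41C3.5 (ctsa-1.1) had -0.89 ± 0.06 on K12, and F13D12.6 (ctsa-1.2) had -3.71 ± 0.21 on K12 and -6.65 ± 0.31 on tnaA.

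Regulators did not follow 1 direction. The transcription factor gene hlh-30, the worm counterpart of the lysosomal regulator TFEB, rose by 0.76 ± 0.07 on K12 and by 1.07 ± 0.07 on tnaA. Its antagonist mxl-3 fell on both strains (-1.53 ± 0.12 and -0.48 ± 0.12), and here the difference between strains was called (-1.05 ± 0.17, adjusted p = 0.0229). With the replicate number as a block, this difference was called over all genes for 4 higher and 6 lower, against 217 and 147 without it. How far the mxl-3 call depends on single libraries is not given here. Of the 9 regulators listed 4 rose and 3 fell on each strain, near the shares of all genes (32.9% higher and 36.7% lower on K12).

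**Figure D3:**
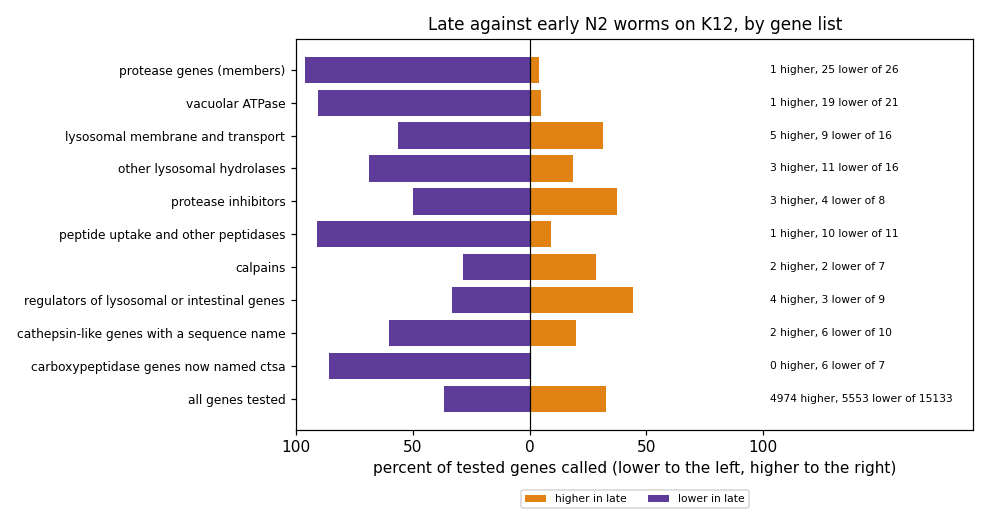
Bars give the percentage of tested genes of each list that were called lower (left, purple) or higher (right, orange) in late than in early N2 worms on K12, with the numbers at the right. The protease members (25 lower and 1 higher of 26) resemble the vacuolar ATPase list (19 and 1 of 21), while all genes tested were divided about evenly (5553 and 4974 of 15133).

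Late N2 worms on K12 and on tnaA were compared to see what bacterial indole production changes in old animals. The aspartic protease genes asp-1, asp-5, asp-6 and asp-8 and the cathepsin L gene cpl-1 were lower on K12 than on tnaA, and asp-17 and the serine peptidase genes pcp-3 and tpp-2 were higher. These are 5 lower and 3 higher of 28 members, with a median of -0.07 against -0.06 over all genes, where 4.27% of all genes were called lower and 5.85% higher.

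For asp-5 late libraries had 89.8 and 103.8 CPM on K12 and 153 and 141.998 on tnaA. The groups did not overlap (-0.61 ± 0.11, adjusted p = 0.0101). Its neighbour asp-6 had 545 and 561 against 818 and 725 CPM (-0.48 ± 0.11, adjusted p = 0.0220), and asp-12, which lies between them, had 5.44 and 7.08 against 9.32 and 7.32, which was not called (-0.44 ± 0.18, adjusted p = 0.144). For asp-1 the K12 libraries were far apart at 245 and 392 CPM, both below the 517 and 459 on tnaA (-0.62 ± 0.18, adjusted p = 0.0468). The rare asp-8 had 6 and 7 reads on K12 and 19 and 19 on tnaA, or 0.343 and 0.424 against 1.121 and 1.96 CPM (-1.91 ± 0.40). A small difference was called for cpl-1, with 394 and 442 against 491 and 489 CPM (-0.23 ± 0.06).

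In the other direction asp-17 was 6.12 times as high on K12 as on tnaA (2.65 ± 0.51, adjusted p = 0.0104). The genes asp-17 and asp-1, members of the same run of neighbours, thus differed in opposite directions. The prolyl carboxypeptidase-like gene pcp-3 had 20.1 and 20.04 CPM on K12 and 13.6 and 14.8 on tnaA (0.51 ± 0.13), and tpp-2 had 251 and 238 against 215 and 191 (0.27 ± 0.07). Values of pcp-3 on each strain were close to each other and apart from the other strain. No cpr gene was called, with changes between -0.28 ± 0.09 for cpr-4 and 0.21 ± 0.13 for cpr-3. However, cpr-4 was called by DESeq2, and with library-size scaling, the stricter filter, no filter or the compared groups alone (-0.31 to -0.25).

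Each of these 8 calls rests on few libraries. Leaving out replicate 1 of late K12 ended all 8 (adjusted p = 0.0749 to 0.348), and so did leaving out replicate 3 of late tnaA (adjusted p = 0.0728 to 0.187), when the calls over all genes dropped to 41 higher and 15 lower and to 10 and 19. In turn 6 of the calls were lost without late tnaA replicate 2, 3 were lost without late K12 replicate 3, and asp-1 was also lost without early K12 replicate 2 or early tnaA replicate 3, cpl-1 without early K12 replicate 2. In those fits the changes kept their direction, from -0.70 to -0.32 for asp-1, -0.66 to -0.51 for asp-5, -0.57 to -0.39 for asp-6, -1.76 to -1.53 for asp-8, -0.23 to -0.15 for cpl-1, 2.42 to 2.81 for asp-17, 0.44 to 0.57 for pcp-3 and 0.19 to 0.30 for tpp-2. The call of asp-1 was also lost with DESeq2 and with RLE scaling (-0.60 in both), and that of cpl-1 with no filter (-0.20, adjusted p = 0.0569). DESeq2 gave no adjusted p for asp-8 and asp-17. The summed intestinal markers were 732 and 755 CPM in late K12 and 764 to 799.9 in late tnaA libraries, and germline markers 8288 and 8795 against 6080 and 6413, with 13 of 13 higher on K12, and the part of both tissues in these changes was not tested. The authors' deposited table for this comparison lists 5 members, with asp-6 at -0.41, asp-5 at -0.51, tpp-2 at 0.30, pcp-3 at 0.41 and asp-10 at 0.29.

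In early worms none of the 28 members was called by edgeR between K12 and tnaA, where 0.0132% of all genes were called higher and 0.0529% lower. Among the 28, asp-11 and cpr-2 passed the filter through late libraries alone. With almost no early reads they could hardly be called here. Without adjustment, 1 member was higher and 4 lower on K12 at p under 0.05, and DESeq2 called 1, asp-12, which had 24.6, 23.4 and 21.7 CPM on K12 and 33.7 and 43.0 on tnaA (-0.72 ± 0.13, adjusted p = 0.0657 by edgeR). The genes asp-1, asp-5 and asp-6, lower on K12 in late worms, had -0.12 ± 0.16, -0.17 ± 0.10 and -0.16 ± 0.10 in early ones. The difference between late and early was not called for them (asp-5 -0.44 ± 0.15 with an adjusted p of 0.112, asp-6 -0.32 ± 0.15 and asp-1 -0.50 ± 0.24).

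Late ahr-1 mutants were compared with late N2 on K12 to see what depends on the receptor. Cathepsins L and Z and pcp-5 were higher in mutants, cpr-2 was much higher, and asp-10, pcp-3, cpr-3 and cpr-5 were lower. Of 27 members 6 were higher and 4 lower, with a median of -0.04 against 0.00 over all genes, where 12.3% of all genes were called higher and 12.2% lower (1855 and 1840 genes, or 1616 and 2422 with RLE scaling). This comparison shares its N2 libraries with the strain comparison and with ageing on K12.

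The largest change was that of cpr-2, with 105 and 192 CPM in ahr-1 against 12.7 and 12.7 in N2 on K12 and 14.6 and 11.4 on tnaA. Mutant libraries lay far above every N2 library, although they differed between themselves (3.55 ± 0.24, adjusted p = 4.18e-06). The same gene was near 0 in early worms. Late ahr-1 libraries also had more sperm transcripts, with 12 sperm markers summing to 36.7 and 41.3 CPM against 3.61 and 3.88 in late N2 on K12, and 8 of the 10 tested were higher. Germline and oocyte markers were lower in mutants, with sums of 5711 and 6916 CPM and 13 of 13 called. Early N2 libraries, which differ in age and genotype, had sperm sums of 11.5 to 102 CPM with at most 0.321 CPM of cpr-2. The part of sperm and germline cells in the changes was not tested.

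The gene pcp-5 had 44.1 and 42.1 CPM in mutants against 25.5 and 23.4 in N2 (0.82 ± 0.08, adjusted p = 4.99e-05). Late mutants thus stood near the 45.0 to 48.3 CPM of early N2. For cpz-1 the values were 144 and 151 in mutants and 95.0 and 111 in N2 (0.52 ± 0.08, adjusted p = 8.66e-04), for cpz-2 38.9 and 38.2 against 26.2 and 28.7 (0.49 ± 0.16), and for cpl-1 518 and 522 against 394 and 442 (0.31 ± 0.06). In each of these genes, named because they were called, both mutant libraries were above both N2 libraries. The share of all genes that separate in this way is not given here. For asp-1 the values were 466 and 509 against 245 and 392 (0.62 ± 0.18). The pseudogene asp-11 had 8 and 14 reads in ahr-1 and 1 and 0 in N2 on K12, and as it entered the fit through its mutant reads no test is given.

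Lower in mutants were pcp-3, with 8.52 and 8.87 CPM against 20.1 and 20.04 (-1.21 ± 0.14, adjusted p = 1.77e-04), and asp-10, with 34.4 and 54.2 against 85.0 and 104.03 (-1.08 ± 0.17, adjusted p = 0.00102). The adjacent pcp-2 was not called (0.251 and 1.92 against 1.26 and 1.45 CPM). The cathepsin B-like genes cpr-3, with 30.1 and 28.8 against 41.4 and 46.6, and cpr-5, with 57.7 and 56.8 against 66.4 and 88.2, had -0.58 ± 0.13 and -0.43 ± 0.13. For pcp-3, asp-10, cpr-3 and cpr-5, likewise named because they were called, both mutant libraries lay below both N2 libraries. Not called were, among others, asp-2 (-0.69 ± 0.25, adjusted p = 0.0591), asp-3 (-0.23 ± 0.16), asp-4 (-0.08 ± 0.07), asp-6 (0.18 ± 0.11), cpr-4 (0.04 ± 0.09) and cpr-6 (0.15 ± 0.11). Nor was asp-12 called (-0.60 ± 0.21, adjusted p = 0.0521). With DESeq2, RLE or library-size scaling, the stricter filter and no filter asp-12 was called lower (-0.65 to -0.58). The mutant libraries set the value of asp-2, which was -1.34 without ahr-1 replicate 3 (adjusted p = 0.00418) and -0.28 without replicate 1, and it was called with RLE scaling, the stricter filter and no filter (-0.73 to -0.66).

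The calls of asp-10, cpr-2, cpz-1, pcp-3 and pcp-5 held without any of the 11 libraries. Those of cpl-1 (0.23) and cpr-3 (-0.49) were lost without late K12 replicate 1 and late K12 replicate 3. Those of asp-1 (0.32 to 0.68) were lost without late K12 replicate 1 or either ahr-1 library, and those of cpr-5 (-0.44 to -0.22) without late K12 replicate 3 or either ahr-1 library. DESeq2 did not call asp-1 either (0.57, adjusted p = 0.0844). The call of cpz-2 (0.43 to 0.56) was lost without any of the 4 libraries compared. The authors' deposited table lists 10 members for this comparison, among them cpr-2 at 1.76, pcp-3 at -0.99, pcp-5 at 0.73 and cpr-1 at 0.25. Their cpr-2 change was smaller than the 3.55 found with edgeR, and cpr-1 was not called by edgeR (0.27 ± 0.09, adjusted p = 0.0542). The source of these differences was not tested.

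**Figure D4:**
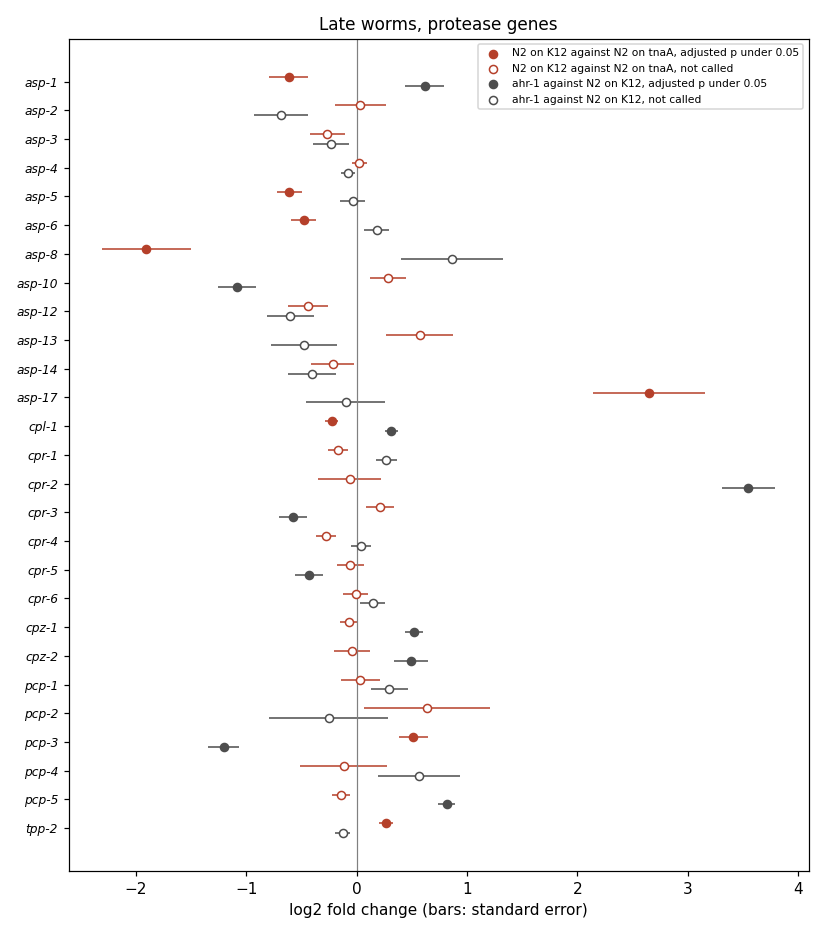
Log2 fold changes in late worms for 27 of the 28 tested members, N2 on K12 against N2 on tnaA (red) and ahr-1 against N2 on K12 (dark grey), with standard errors as bars. Filled points had an adjusted p under 0.05. Both comparisons share the late N2 K12 libraries, which enter with opposite sign, and asp-1 (-0.62 and 0.62), cpl-1 (-0.23 and 0.31) and pcp-3 (0.51 and -1.21) are called in both.

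Since the late K12 libraries are shared with opposite sign, each pair of changes is given without a test of likeness. Set beside the tnaA libraries, late ahr-1 worms had asp-1 at 466 and 509 CPM against 517 and 459, whose ranges overlapped. For pcp-3 mutants stood at 8.52 and 8.87 CPM, below the 13.6 and 14.8 of tnaA worms, and for cpl-1 at 518 and 522, above the 491 and 489. For asp-17 mutants had 2.93 and 6.28 CPM, above the 0.708 and 0.927 of tnaA worms and on both sides of the 4.86 and 5.15 of N2 on K12 (-0.10 ± 0.36 against N2).

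**Figure D5:**
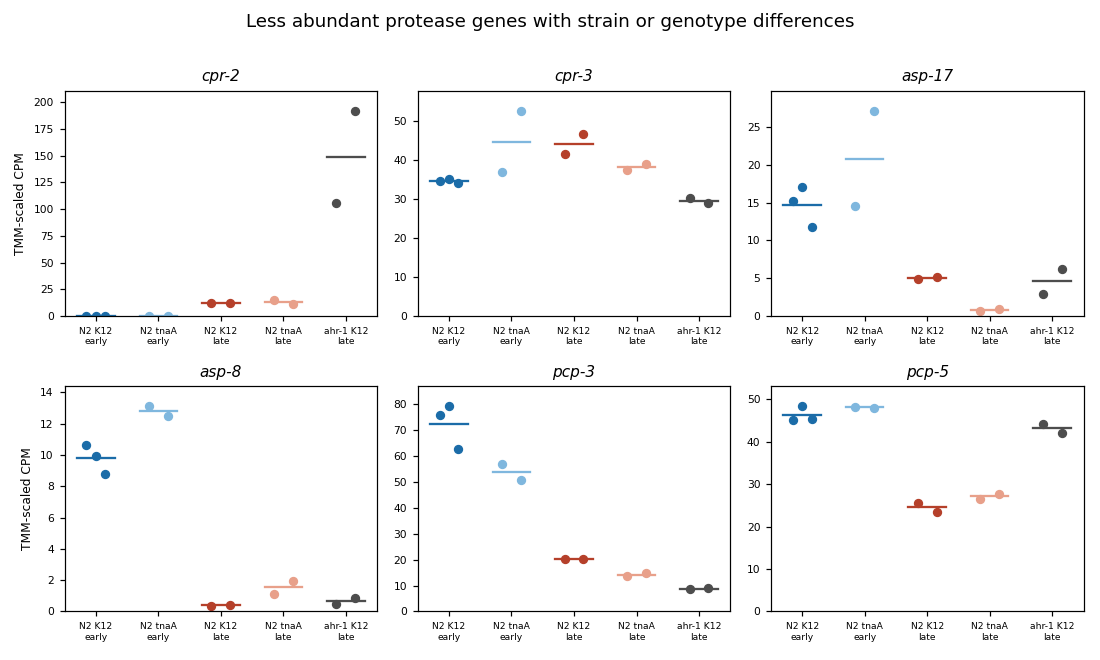
TMM-scaled CPM (linear axes from 0) by library for 6 less abundant members, chosen after their values were seen, with group means as bars. The mutant libraries stand out from all N2 libraries for cpr-2 (105 and 192 CPM) and pcp-3 (8.52 and 8.87). For pcp-5 (44.1 and 42.1) they stand out from late N2 libraries only and lie near the early ones. Late tnaA libraries are lowest for asp-17 (0.708 and 0.927).

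Among related lists, lysosomal hydrolases other than proteases had 7 of 16 genes higher and 1 lower in ahr-1 mutants, where 12.3% of all genes were called higher and 12.2% lower, with a median of 0.36, among them the lysosomal DNase gene nuc-1 (0.77 ± 0.06, adjusted p = 6.53e-06), the hexosaminidase gene hex-1 (0.46 ± 0.07) and the acid ceramidase gene asah-1 (0.61 ± 0.13). The vacuolar ATPase list had 1 higher and 1 lower of 21, and membrane and transport genes 0 and 4 of 16. Inhibitors had 2 higher of 8, among them cpi-1 (0.45 ± 0.09), calpains 2 and 2 of 7, and peptide uptake and other peptidases 1 and 3 of 11, among them pept-1 (-0.79 ± 0.19). Between late K12 and late tnaA, where 5.85% of all genes were called higher and 4.27% lower, these lists held few calls: 2 higher for the vacuolar ATPase and for the peptidases, 1 higher for membrane genes and 0 for other hydrolases, inhibitors and calpains. Of the regulators mxl-3 (-0.91 ± 0.13) and hlh-30 (-0.25 ± 0.07) were lower on K12 than on tnaA. The carboxypeptidase gene F13D12.6 (ctsa-1.2) had 14.6 and 15.9 CPM in late K12 and 2.12 and 2.06 in late tnaA libraries (2.85 ± 0.41, adjusted p = 0.00578), and 4.10 and 9.46 in mutants.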

How the data were processed

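Whole-worm RNA was sequenced, and the authors deposited a table of raw counts for every library (reads per gene), for which the submitters' processing notes name HTSeq 0.6.1p2, STAR and Trim Galore. No source used here states the genome build, annotation or strand setting, and coordinates are therefore not printed. The authors also deposited DESeq2 tables of log2 fold changes and adjusted p-values for both late comparisons, limited to listed genes. Their 8 columns of values per sample were not used. Lines for reads in no gene and ambiguous reads (0.267 to 0.296% of reads) were left out of library sizes.

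The counts went into edgeR 4.0.16 (R 4.3.3). After filterByExpr, run on the groups with a minimum count of 10, there were 15133 genes left, and TMM set the library scaling. A single quasi-likelihood model over 11 libraries held a mean per group and left 6 residual degrees of freedom. P-values are two-sided, with Benjamini-Hochberg adjustment over every tested gene of a comparison. Standard errors were obtained by dividing the absolute unshrunk change by the root of F. Reads carried no molecular identifiers, and replicates are described as biological by the labels. The fit was checked on simulated data. Values per library are given for members with a mean of at least 50 CPM and for the largest called changes of each comparison. Exon lengths come from Ensembl release 115 on WBcel235, which holds 32 of the 34 members. The members and lists were chosen with earlier results of these data known. Members that passed the filter only through the side of a comparison where they were high were set apart there. Of listed genes, those not found in the tables were left out. Alternatives were RLE or library-size scaling, no or a stricter filter (mean of at least 5 CPM), DESeq2 1.42.0, the compared groups alone, the replicate number as a block, and each library left out.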

Additional observations from a re-analysis of the deposited data

Results flagged for a closer look

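The aspartic protease gene asp-17 was called in an interaction test of age and bacterial strain. The difference, ageing change on K12 minus ageing change on tnaA, was 3.15 ± 0.57 on the log2 scale, with late values of 4.86 and 5.15 CPM on K12 and 0.708 and 0.927 CPM on tnaA. The call was lost without any 1 of 6 libraries (adjusted p = 0.0561 to 0.131) and with the replicate number as a block (3.02, adjusted p = 0.109).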

How the results depend on the processing

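Groups of 2 or 3 libraries limit all comparisons, and late tnaA replicate 3 was the shallowest. Of the 26 members called with age on K12, 24 stayed called without any library and 23 under every alternative, and of the 24 on tnaA 23 and 22. For the 8 calls between late K12 and late tnaA both counts were 0, and for the 10 between late ahr-1 and N2 both were 5. Whether the same replicate number marks paired samples could not be settled. Deviations from group means correlated at -0.19 to 0.12 over 16 same-numbered pairs, 2 of them over 0.1. In groups of 2 libraries the deviations mirror each other, so some of these values repeat and are not independent. With the replicate block, late K12 against tnaA had 0 members higher and 0 lower, the age by strain difference 0 higher, and ahr-1 against N2 5 higher and 3 lower, with asp-1 (adjusted p = 0.0522) and cpr-5 (adjusted p = 0.0575) no longer called. With no filter on low counts, the members called were 5 higher for late K12 against tnaA, 8 lower for late ahr-1 against N2, 1 higher and 4 lower for early K12 against tnaA, and 3 higher and 4 lower for the age by strain difference. DESeq2 called 3 higher and 1 lower for that difference and 1 lower between early strains. With the compared groups alone there were 5 higher for late K12 against tnaA and 2 higher and 1 lower for the age by strain difference, and with a mean of at least 5 CPM 1 lower for the latter. Library-size scaling gave 2 risers with age on K12 and 1 on tnaA and turned cpr-4 (0.19 on K12 and 0.35 on tnaA) and cpr-1 (0.0046 on K12 and 0.0736 on tnaA). Leaving out 1 library at a time gave 0 to 1 risers with age on K12. It gave 0 to 4 higher and 0 to 6 lower for late K12 against tnaA, and 3 to 7 higher and 2 to 7 lower for ahr-1. It gave 0 to 1 higher and 0 to 2 lower between early strains, and 0 to 2 higher for the age by strain difference. The cause of these changes was not tested.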
